A study of Mus musculus with 18 samples.

Results

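The genes described here are the Toll-like receptor genes Tlr1, Tlr2, Tlr3, Tlr4, Tlr5, Tlr6, Tlr7, Tlr8, Tlr9 and Tlr13, 10 of the 49585 genes in the count table, chosen by name as members of 1 receptor family and followed across 18 bulk RNA-seq libraries in 6 groups of 3. The mice were of the Kaede strain, whose photoconvertible protein is turned from green to red by violet light, so that red cells found later in a lymph node (LN) had been in the lit tissue. Recipients were given OT-II CD45.1 CD4+ T cells polarized to Th1 in culture, were immunized the next day with ovalbumin in complete Freund's adjuvant, and were then challenged with heat-aggregated ovalbumin (HAO) in the footpad or in the ear pinna. Tissue was photoconverted during the inflammation and viable CD45+ Kaede red+ leukocytes were sorted 1 day later.

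The groups were joint nonmigrated (red cells still in the HAO-challenged joint), joint migrated (red cells in the popliteal LN of those mice), skin nonmigrated and skin migrated (the same from the challenged ear and its draining LN), and joint steady state and skin steady state. The labels give the steady-state groups as CD45+ leukocytes migrated from the joint or ear to the LN, without calling the tissue inflamed. The steady-state groups were not labelled alike: the sample titles call the joint ones PBS and the skin ones Naive, and the joint titles also carry the letters KG, which the labels do not explain. If KG stands for cells that were not photoconverted, the joint steady-state values would be those of cells of the node at large rather than of cells that had left the joint, and each comparison with that group would have to be read so. The titles of the skin steady-state group give no colour, so the same may hold for that group. Whether the Naive mice had received the T cells and the adjuvant is not given in the labels. Each library came from a pool of young adult male and female mice, which the study's methods call biological replicates, so p-values measure the spread between pools and not between animals.

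Toll-like receptors are membrane proteins of the innate immune system that bind molecules of microbes and of damaged tissue. Of the receptors chosen here, those for lipids and proteins sit at the cell surface, and those for nucleic acids sit in endosomes, where UNC93B1 delivers them. Nearly all signal through the adaptor MYD88. Macrophages, monocytes and neutrophils carry many of them, dendritic cells carry sets that depend on the subset, and B cells are known for TLR1, TLR7 and TLR9.

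Each library held between 19239531 and 43814403 reads assigned to genes. The inflamed skin libraries (at most 22528895) were shallower than the joint ones (at least 35554698), so that depth and site cannot be told apart. They were also shallower than the skin steady-state libraries (at least 28577566), so depth and inflammation cannot be told apart in the skin-draining node. The test of whether the change with inflammation differed between nodes shares this limit. The inflamed skin libraries also had fewer reads in no gene, 0.0925% to 0.135% against 0.227% to 0.562% in the other groups. Their columns in the count table are named in another style. The labels do not say whether these libraries were handled apart. Any such difference could not be told apart from site in the inflamed groups, or from inflammation in the skin-draining node. All 10 genes passed the filter on low counts in each fit. Levels are given as CPM, counts scaled to a common library total with TMM factors, and levels of different genes are set against each other only per kilobase of exon. Ptprc, which encodes CD45, was at 1156 to 2531 CPM in all 18 libraries. The third skin nonmigrated library stood apart from its group for several receptors and is given with each result it touches.

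At both inflamed sites 8 of the 10 receptors were lower in migrated than in nonmigrated leukocytes, and the exceptions were Tlr1 and Tlr9 at each site. A gene was called changed at an adjusted p under 0.001 (edgeR quasi-likelihood F test, Benjamini-Hochberg over the 16777 genes tested) with an absolute log2 fold change above 1. By that rule 8 of 10 were called lower and 0 higher in the joint, against 12.6% of all genes called lower and 8.8% called higher. In the skin the counts were again 8 lower and 0 higher, against 12.4% and 8.49% of all genes. The median log2 fold change of the 10 receptors was -3.52 in the joint and -3.46 in the skin, and that of all genes was 0.02 and 0.01. Scaled by total counts alone, with no TMM factors, the median of all genes moved up to 0.33 in the joint and 0.28 in the skin, and the calls over all genes changed from 1476 higher and 2110 lower to 2356 higher and 1676 lower in the joint, and from 1424 and 2084 to 2274 and 1716 in the skin.

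**Figure D1:**
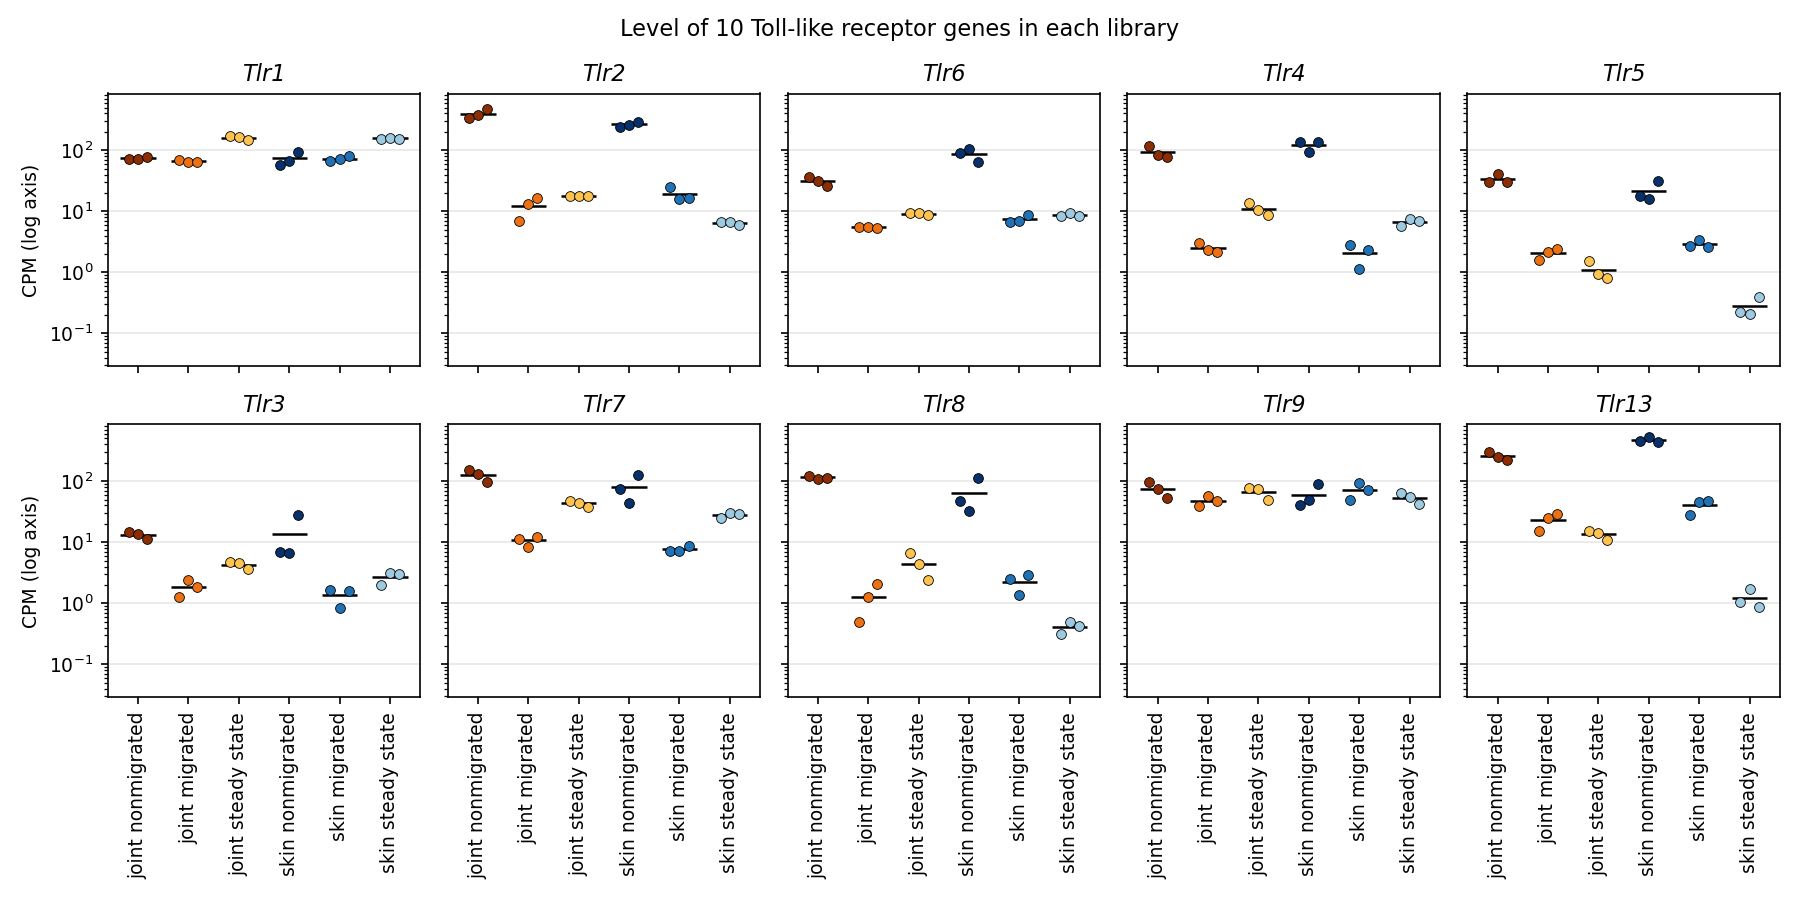
Level of the 10 receptor genes in each of the 18 libraries, in CPM on a log axis. Points are libraries and bars are the means of 3. In 8 panels the nonmigrated groups lie above the migrated ones at both sites, while Tlr1 and Tlr9 hold similar levels in these 4 groups.

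Among the surface receptors, Tlr2, which pairs with TLR1 or TLR6 to bind bacterial lipopeptides, was at 335, 383 and 466 CPM in the joint nonmigrated libraries and at 7.06, 13.3 and 16.8 CPM in the joint migrated libraries. In the skin Tlr2 was at 240.2, 257 and 294 CPM in nonmigrated and at 25.0, 16.1 and 16.4 CPM in migrated leukocytes. No migrated library came near a nonmigrated one at either site. The fall of Tlr2 was 31.8-fold in the joint (log2 fold change -4.99, SE 0.32, adjusted p = 4.71e-07) and 13.8-fold in the skin (log2 fold change -3.78, SE 0.30, adjusted p = 1.78e-06).

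Tlr1 and Tlr6, the partners of Tlr2, did not behave alike. Tlr1 was at 72.7, 72.9 and 78.6 CPM in joint nonmigrated and at 70.3, 64.9 and 63.5 CPM in joint migrated leukocytes, and in the skin at 57.1, 67.3 and 95.2 CPM against 67.4, 71.6 and 79.7 CPM. The joint groups did not overlap but lay close together, and the skin groups overlapped. The log2 fold change of Tlr1 was -0.17 in the joint (SE 0.15, adjusted p = 0.364) and -0.01 in the skin (SE 0.15, adjusted p = 0.96), and these values turned to 0.14 and 0.25 with no TMM scaling. Tlr6 was at 35.8, 31.1 and 25.7 CPM in joint nonmigrated and at 5.63, 5.47 and 5.40 CPM in joint migrated libraries, and in the skin at 88.7, 106.5 and 63.6 CPM against 6.80, 7.04 and 8.69 CPM. All migrated libraries were below all nonmigrated ones for Tlr6, by 5.6-fold in the joint (log2 fold change -2.49, SE 0.20, adjusted p = 1.82e-06) and 11.5-fold in the skin (log2 fold change -3.53, SE 0.20, adjusted p = 1.87e-07). Tlr1 and Tlr6 are neighbouring, related genes on chromosome 5. Multiply aligned reads were set aside in the counting, so reads from near-identical stretches could be lost, which could move their values. Per length of exon, the Tlr1 to Tlr6 ratio was 2.26 to 3.40 in joint nonmigrated and 13.1 to 13.9 in joint migrated libraries.

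Tlr4, the receptor for lipopolysaccharide, was at 119, 84.8 and 78.0 CPM in joint nonmigrated and at 3.06, 2.31 and 2.14 CPM in joint migrated libraries. In the skin Tlr4 was at 135, 92.0 and 138 CPM against 2.79, 1.15 and 2.31 CPM. Migrated cells of both sites thus held Tlr4 at a few CPM, 37.4-fold lower in the joint (log2 fold change -5.22, SE 0.30, adjusted p = 2.78e-07) and 58.2-fold lower in the skin (log2 fold change -5.86, SE 0.32, adjusted p = 1.29e-07). Tlr5, the flagellin receptor, was at 30.5, 41.5 and 30.7 CPM against 1.62, 2.13 and 2.38 CPM in the joint, and at 17.6, 15.9 and 30.8 CPM against 2.70, 3.40 and 2.57 CPM in the skin. The groups did not overlap for Tlr5, and the third skin nonmigrated library was the highest of its group. Its fall was 16.7-fold in the joint (log2 fold change -4.06, SE 0.28, adjusted p = 8.23e-07) and 7.44-fold in the skin (log2 fold change -2.90, SE 0.28, adjusted p = 6.39e-06).

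Of the endosomal receptors, Tlr7 and Tlr8, which bind single-stranded RNA and lie near each other on the X chromosome, were both lower after migration. Tlr7 was at 154, 130.3 and 95.4 CPM in joint nonmigrated and at 11.5, 8.50 and 12.1 CPM in joint migrated libraries, and at 75.1, 44.0 and 125 CPM against 7.22, 7.24 and 8.82 CPM in the skin. Tlr8 was at 123, 109 and 115 CPM against 0.493, 1.26 and 2.10 CPM in the joint, and at 48.2, 32.5 and 114 CPM against 2.47, 1.35 and 2.88 CPM in the skin. The skin nonmigrated libraries spread widely for both genes, again with the third the highest, but stayed above every migrated library. Tlr8 had the largest fall of the 10 in the joint, 89.7-fold (log2 fold change -6.49, SE 0.59, adjusted p = 4.46e-06), and fell 28.9-fold in the skin (log2 fold change -4.86, SE 0.56, adjusted p = 2.38e-05). Tlr7 fell 11.8-fold in the joint (adjusted p = 5.81e-06) and 10.5-fold in the skin (adjusted p = 9.24e-06).

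Tlr13, which senses bacterial ribosomal RNA in rodents, was at 305, 247 and 219 CPM in joint nonmigrated and at 15.6, 24.5 and 28.7 CPM in joint migrated libraries. In the skin Tlr13 reached 451, 531 and 445 CPM in nonmigrated leukocytes and was at 27.9, 45.2 and 48.0 CPM in migrated ones. The falls of Tlr13 were close in size, 11.2-fold in the joint (log2 fold change -3.48, SE 0.26, adjusted p = 1.39e-06) and 11.8-fold in the skin (log2 fold change -3.56, SE 0.27, adjusted p = 1.13e-06). Tlr3, the sensor of double-stranded RNA, was low throughout, at 14.7, 13.4 and 11.2 CPM against 1.25, 2.38 and 1.87 CPM in the joint and at 6.84, 6.78 and 27.5 CPM against 1.68, 0.849 and 1.60 CPM in the skin. Its groups did not overlap, at a log2 fold change of -2.84 in the joint (SE 0.52, adjusted p = 0.000676) and -3.31 in the skin (SE 0.55, adjusted p = 0.000341). The joint call of Tlr3 was lost whichever of the 6 joint libraries was left out, which made 7 calls of 10. Its skin call was lost with any of the 3 skin migrated libraries left out (log2 fold change -3.46 to -3.07) and with only the groups compared (-3.32), and was kept without the third skin nonmigrated library (-2.30). Exons of Tlr3 overlap the antisense gene Gm45542, and whether the libraries kept strand is not given in the sources used here, so reads of these genes may be mixed.

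Tlr9, the receptor for unmethylated CpG DNA, was at 97.4, 73.7 and 52.0 CPM in joint nonmigrated and at 38.9, 57.7 and 47.9 CPM in joint migrated libraries. In the skin Tlr9 was at 41.2, 49.4 and 88.6 CPM against 48.9, 93.7 and 72.2 CPM. The groups overlapped at both sites, with a log2 fold change of -0.63 in the joint (SE 0.32, adjusted p = 0.117) and 0.26 in the skin (SE 0.32, adjusted p = 0.514). Without the third skin nonmigrated library the skin value was 0.66 and was still not called. Tlr9 did not keep step with Tlr7, which shares its adaptor and its transport to endosomes: the per-length Tlr9 to Tlr7 ratio was 0.64 to 0.742 in joint nonmigrated and 3.98 to 7.96 in joint migrated libraries, and 0.644 to 1.32 against 7.95 to 15.2 in the skin.

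**Figure D2:**
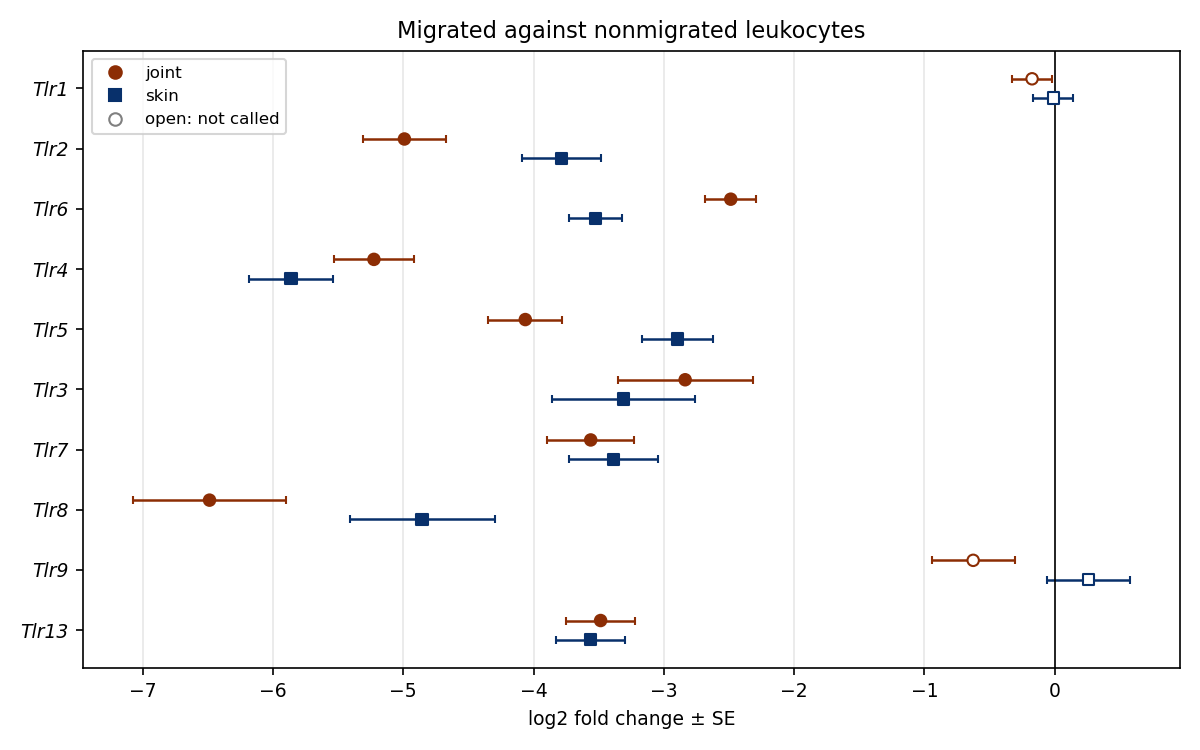
Log2 fold change of each receptor, migrated against nonmigrated, in joint (circles) and skin (squares), with bars of 1 standard error and open symbols for genes that were not called. Of the 10 receptors 8 lie well below 0 at both sites, and Tlr1 and Tlr9 lie near 0.

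The promoters of the receptors were looked at for a shared feature, because members that fell and members that held their level could be set side by side. RefSeq promoter sequences (GRCm38.p6) were at hand for 8 of the 10 genes, with no entry for Tlr4 and Tlr7, and the 250 bases before the transcription start were searched for GAGGAA, the box bound by the myeloid and B cell factor PU.1, or TTCCTC on the other strand. These genes had 10 promoter entries, 2 each for Tlr1 and Tlr6. The box was found in 4 of the 10 entries, each of another gene, and in 23.3% of 32851 entries over all genes. The 4 genes were Tlr1 and Tlr9, which held their level, and Tlr8 and Tlr13, which fell, so the box was found in receptors of both kinds. The second entry of Tlr1 held no box. The sequences are chr5:64933559-64933808 (minus strand), chr9:106222348-106222597 (plus strand), chrX:167264330-167264579 (minus strand) and chrX:106143025-106143274 (plus strand), each written 5′ to 3′ along the gene with the box in capitals.
Tlr1: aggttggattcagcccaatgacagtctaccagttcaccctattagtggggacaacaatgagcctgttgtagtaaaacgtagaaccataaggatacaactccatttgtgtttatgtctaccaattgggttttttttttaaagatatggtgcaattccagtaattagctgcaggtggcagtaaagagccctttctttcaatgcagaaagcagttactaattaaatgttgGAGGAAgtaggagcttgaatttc
Tlr9: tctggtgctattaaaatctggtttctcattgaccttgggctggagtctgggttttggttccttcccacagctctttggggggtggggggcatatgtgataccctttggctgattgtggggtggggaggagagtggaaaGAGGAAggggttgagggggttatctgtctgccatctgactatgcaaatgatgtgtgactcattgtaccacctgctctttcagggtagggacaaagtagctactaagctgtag
Tlr8: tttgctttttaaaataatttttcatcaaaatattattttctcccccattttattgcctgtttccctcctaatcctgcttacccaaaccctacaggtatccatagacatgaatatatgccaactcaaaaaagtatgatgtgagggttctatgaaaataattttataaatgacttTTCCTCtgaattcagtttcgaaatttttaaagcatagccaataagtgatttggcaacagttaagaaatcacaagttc
Tlr13: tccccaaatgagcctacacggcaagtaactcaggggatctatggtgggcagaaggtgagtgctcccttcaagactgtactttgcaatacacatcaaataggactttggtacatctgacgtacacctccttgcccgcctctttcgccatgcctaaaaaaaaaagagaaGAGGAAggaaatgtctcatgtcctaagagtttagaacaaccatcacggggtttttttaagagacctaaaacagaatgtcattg
The box lies 23 bases before the start in Tlr1, 112 in Tlr9, 77 in Tlr8 and 83 in Tlr13, counted from its first base. A match is a description of these letters, not of a bound site. The other promoters with an entry, of Tlr2, Tlr3, Tlr5 and Tlr6, held no such box in these bases.

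Together the 10 receptors gave a summed level of 332 ± 10.4 CPM per kb (SD, n = 3) in joint nonmigrated and 48.8 ± 4.33 in joint migrated leukocytes, and 327 ± 38.5 against 63.9 ± 8.04 in the skin. The makeup of this sum changed with its size. Tlr2 held 39.5% ± 7.38 of it in joint nonmigrated and 8.29% ± 2.77 in joint migrated leukocytes, and Tlr13 held the largest share in skin nonmigrated leukocytes, 34.2% ± 5.89. Tlr1 and Tlr9 together held 13.1% ± 1.38 in joint nonmigrated against 69.2% ± 4.92 in joint migrated leukocytes, and 11.7% ± 2.51 against 66.0% ± 3.57 in the skin. These shares are a description of levels, with no test.

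**Figure D3:**
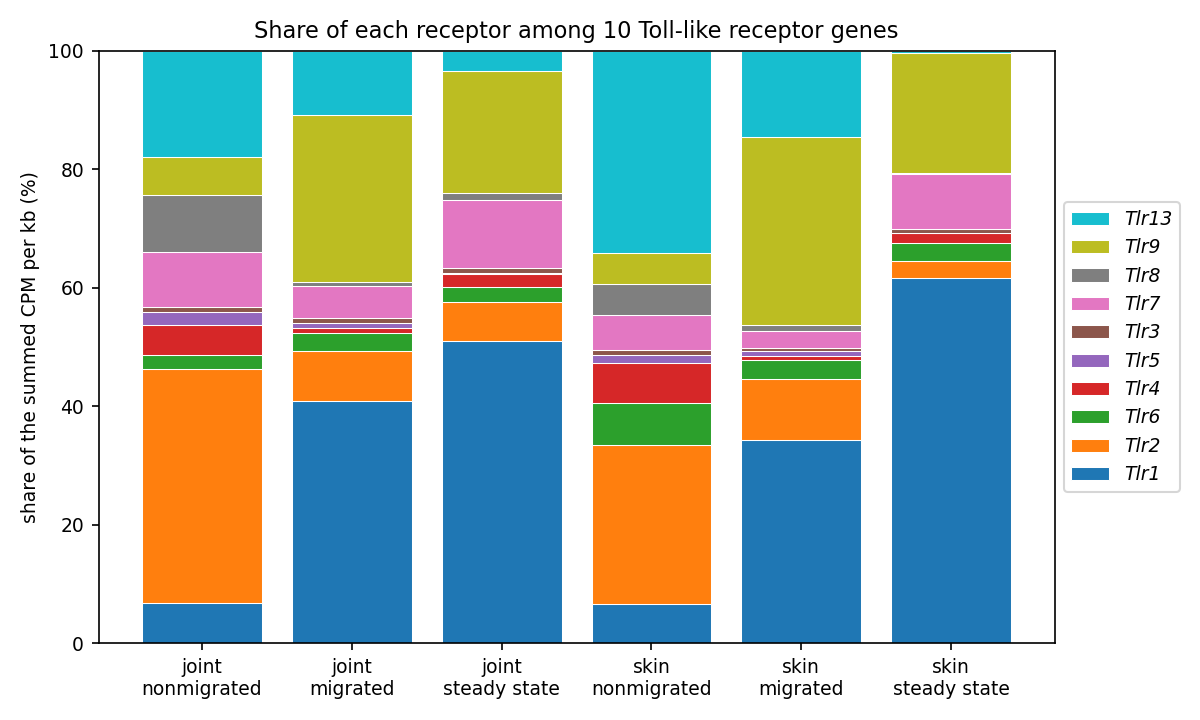
Mean share of each receptor in the summed level of the 10 genes, in CPM per kb of exon, by group (3 libraries each). Tlr1 and Tlr9 take 69.2% and 66.0% in the joint and skin migrated groups, against 13.1% and 11.7% in the nonmigrated groups.

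Cell type markers moved along with these falls. The summed level of 8 neutrophil markers ranged from 5601 to 17360 CPM in joint nonmigrated and from 36.2 to 91.5 CPM in joint migrated libraries, and from 1584 to 2602 against 13.5 to 26.2 CPM in the skin. That of 9 monocyte and macrophage markers went from 6945 to 10060 down to 302 to 436 CPM in the joint, and from 2700 to 8236 down to 403 to 559 CPM in the skin, with 8 of the 9 called lower at each site. In the other direction, B cell markers were called higher in 5 of 7 in the joint and 7 of 7 in the skin, T cell markers in 7 of 7 and 3 of 7, and markers of mature migratory dendritic cells in 4 and 2 of the 5 tested. Fibroblast markers, which the CD45 gate would leave out, were at 59.0 to 357 CPM in sum in the nonmigrated libraries and at 1.03 to 2.15 CPM in the migrated ones. In bulk samples fewer cells of a type and less receptor RNA per cell cannot be told apart, and the part of these cell types in the receptor values was not tested. Plasmacytoid dendritic cell markers, of cells known for Tlr7 and Tlr9, gave 1 of 6 called higher and 0 lower at each site.

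The joint and skin nonmigrated groups addressed whether leukocytes retained in a joint differ from those retained in skin. Of the 10 receptors, only Tlr6 was called, lower in the joint by 2.8-fold (log2 fold change -1.49, SE 0.19, adjusted p = 0.000343), against 1.9% of all genes called lower and 1.14% called higher in the joint. Its joint libraries, at 25.7 to 35.8 CPM, all lay below the skin ones, at 63.6 to 106.5 CPM. This call was lost when any of the libraries of the 2 groups other than the third skin one was left out, and in the fit with these groups alone. Calls over all genes dropped as well, from 511 to between 120 and 210 with 1 of those libraries left out. In the fit with these groups alone they dropped to 0 of 15385 genes. The call of Tlr6 was also lost with replicate number added to the fit (adjusted p = 0.00102), where 304 of all genes were called. Same-numbered libraries of these 2 groups did not deviate together from their group means (correlation -0.011, -0.093 and -0.313). Replicate number thus gave no pairing here, and this loss decides nothing about the call. Tlr13 was also lower in each joint than in each skin library, with a log2 fold change of -0.89 (SE 0.24, adjusted p = 0.0184), and Tlr2 was higher in each joint library, with 0.58 (SE 0.27, adjusted p = 0.129), neither of them called. For Tlr3, Tlr5, Tlr7, Tlr8 and Tlr9 the third skin nonmigrated library was the highest of its group and the groups overlapped. Without it the log2 fold change, joint against skin, went from 0.67 to 1.03 for Tlr5 (adjusted p = 0.00285) and from 0.64 to 1.09 for Tlr7 (adjusted p = 0.00664). That of Tlr8 went from 0.83 to 1.52 (adjusted p = 0.00952) and that of Tlr3 from -0.06 to 0.94 (adjusted p = 0.0319), and none of them was called. At an adjusted p under 0.05, Tlr5, Tlr7 and Tlr8 would be called without that library, as would 3720 of all 17931 genes. That library also held the highest sums of its group for monocyte and macrophage markers (8236 CPM) and fibroblast markers (252 CPM) and the lowest for neutrophil (1584 CPM) and keratinocyte markers (23.8 CPM), whose part was not tested.

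Between the migrated groups of the 2 sites, 0 of the 10 receptors and 0 of all 16777 genes were called by edgeR (0.0%), with 2770 genes at an unadjusted p under 0.05 and 181 called by DESeq2. The log2 fold changes of the receptors, joint against skin, lay between -0.81 (Tlr13, SE 0.24, adjusted p = 0.121) and 0.47 (Tlr7, SE 0.32, adjusted p = 0.506). The difference between the joint change and the skin change with migration was tested as an interaction, in which 0 of the 10 receptors and 0.119% of all genes were called. Tlr6 was the nearest to a call, with a smaller fall in the joint by 1.04 on the log2 scale (SE 0.27, adjusted p = 0.0371). The other 9 had adjusted p values from 0.0747 for Tlr5 (-1.17, SE 0.37) to 0.913 for Tlr13 (0.08, SE 0.34). Without the third skin nonmigrated library Tlr6 was at 1.21 (adjusted p = 0.00299) and Tlr5 at -1.53 (adjusted p = 0.0042). The value of Tlr8 then went from -1.63 to -2.32 (adjusted p = 0.0146) and that of Tlr9 from -0.88 to -1.28 (adjusted p = 0.0389). Tlr2 was at -1.29 (adjusted p = 0.0436), and none of these was called.

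Against the steady-state libraries, migrated leukocytes had less Tlr1, Tlr4 and Tlr7 at both sites. Tlr1 was at 146 to 169 CPM in joint steady state and 152 to 161 CPM in skin steady state, above every inflamed library, and was lower in migrated cells by 2.35-fold in the joint (log2 fold change -1.23, SE 0.09, adjusted p = 1.56e-07) and 2.09-fold in the skin (log2 fold change -1.06, SE 0.09, adjusted p = 3.05e-07). Tlr7 was at 48.0, 44.5 and 37.4 CPM in joint steady state and at 24.9, 30.2 and 29.5 CPM in skin steady state, and was 3.95-fold lower in joint migrated (adjusted p = 2.14e-07) and 3.55-fold lower in skin migrated cells (adjusted p = 3.16e-07). The groups did not overlap for these genes. Tlr4 was at 13.6, 10.7 and 8.68 CPM in joint steady state and at 5.67, 7.57 and 7.03 CPM in skin steady state, 4.27-fold (adjusted p = 2.69e-05) and 3.16-fold (adjusted p = 0.000191) above the migrated cells. In the joint these 3 were all the calls, 3 lower and 0 higher of 10, against 3.5% of all genes called lower and 12.4% called higher. Neutrophil markers were called lower in 7 of 8 in this comparison, with sums of 36.2 to 91.5 CPM in joint migrated and 437 to 848 CPM in joint steady-state libraries, and their part was not tested.

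In the skin, 3 receptors were called higher and 3 lower in migrated than in steady-state cells, against 16.6% and 8.51% of all genes. The skin migrated libraries were the shallower ones here, so depth and inflammation cannot be told apart. The rise was in Tlr2, Tlr5 and Tlr13. Tlr13 was at 1.05, 1.74 and 0.886 CPM in skin steady state, below the libraries of the 5 other groups, and was 33.2-fold higher in skin migrated cells (log2 fold change 5.05, SE 0.32, adjusted p = 1.91e-08). Tlr5 was at 0.224, 0.208 and 0.397 CPM in skin steady state and 10.8-fold higher in skin migrated cells (log2 fold change 3.43, SE 0.35, adjusted p = 1.78e-06). Tlr2 was at 6.80, 6.72 and 6.02 CPM in skin steady state and 3.01-fold higher in skin migrated cells (log2 fold change 1.59, SE 0.26, adjusted p = 0.000114), a call that was lost without the third skin steady-state library (log2 fold change 1.49). Tlr8, at 0.314, 0.486 and 0.428 CPM in skin steady state, was 5.57-fold higher in skin migrated cells with no overlap, just short of a call (log2 fold change 2.48, SE 0.53, adjusted p = 0.00115), and was called by DESeq2, with no filter and with only the groups compared. Monocyte and macrophage markers were called higher in 8 of 9 in this comparison, with sums of 403 to 559 CPM in skin migrated and 141 to 166 CPM in skin steady-state libraries, and their part was not tested. In the joint the values for migrated against steady state were 0.80 for Tlr13 (SE 0.25, adjusted p = 0.0181), 0.91 for Tlr5 (SE 0.29, adjusted p = 0.0205), -0.50 for Tlr2 (SE 0.24, adjusted p = 0.104) and -1.76 for Tlr8 (SE 0.46, adjusted p = 0.00615), none of them called. Tlr9 overlapped between the groups at both sites (log2 fold change -0.46 in the joint and 0.45 in the skin, neither called). In the joint and skin nodes alike B cell markers were far higher at steady state, with sums of 4809 to 4993 CPM against 778 to 1069 CPM in joint migrated cells and 3237 to 4235 CPM against 122 to 224 CPM in skin migrated cells, and 7 of 7 were called lower in migrated cells at each site, and their part was not tested.

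**Figure D4:**
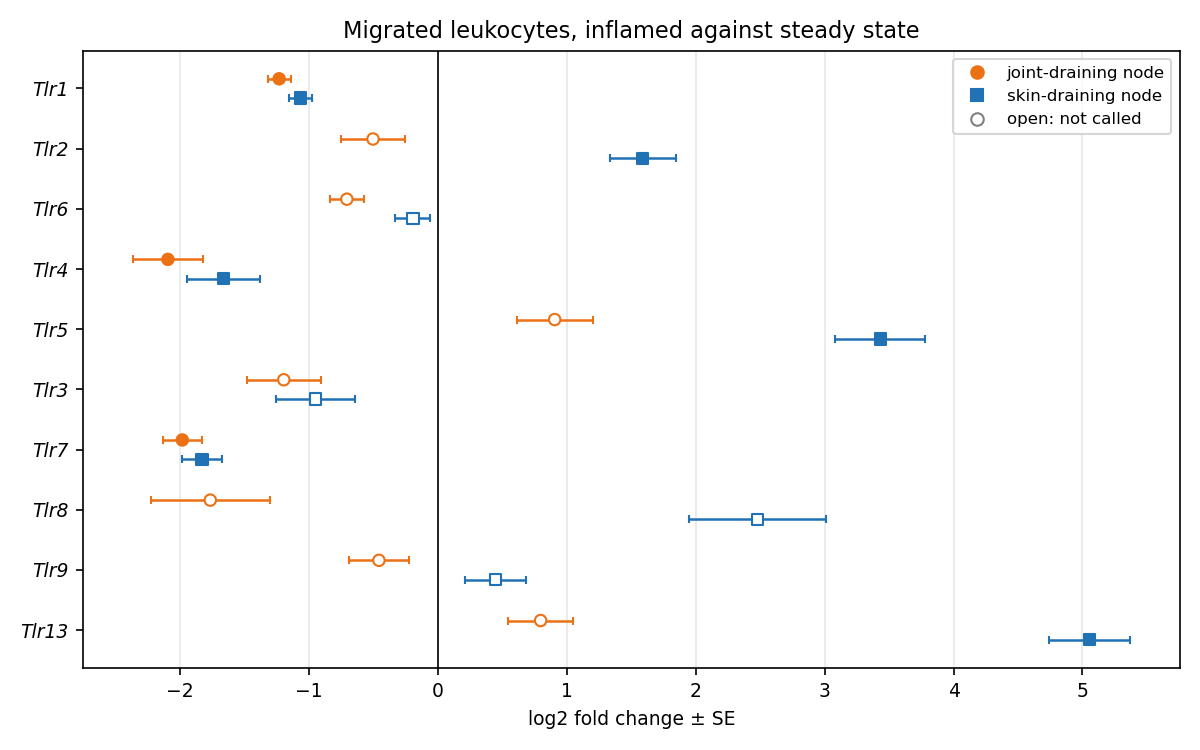
Log2 fold change of each receptor in migrated leukocytes of inflamed mice against steady state, for the joint-draining node (circles) and the skin-draining node (squares), with bars of 1 standard error and open symbols for genes that were not called. Tlr1, Tlr4 and Tlr7 lie below 0 in both nodes, while Tlr2, Tlr5, Tlr8 and Tlr13 lie farther to the right in the skin-draining node.

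The steady-state nodes themselves differed. Tlr13 was at 15.0, 14.4 and 11.1 CPM in joint steady state, 10.8-fold above skin steady state (log2 fold change 3.43, SE 0.30, adjusted p = 1.49e-05), and was the only 1 of the 10 called, against 1.4% of all genes called higher and 0.0409% called lower. Tlr8, at 6.56, 4.44 and 2.40 CPM against 0.314, 0.486 and 0.428 CPM, just missed the call (log2 fold change 3.43, SE 0.52, adjusted p = 0.00101), as did Tlr5 (2.02, SE 0.35, adjusted p = 0.00267) and Tlr2 (1.45, SE 0.25, adjusted p = 0.00278). The libraries of these 4 genes did not overlap between the nodes. All 8 neutrophil markers were called higher in joint steady state, with sums of 437 to 848 CPM against 11.6 to 18.1 CPM, as were 4 of 9 monocyte and macrophage markers, and their part was not tested. The test of whether the change between steady state and inflammation differed between nodes, added after the values were seen, called Tlr13 (difference of log2 fold changes, joint minus skin, -4.25, SE 0.39, adjusted p = 4.67e-05), 1 of 10 against 0.889% of all genes.

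The order of the 6 groups differed between receptors. Tlr4 went from skin nonmigrated (mean 122 CPM) and joint nonmigrated (94.1 CPM), which overlapped, through joint steady state (10.98 CPM) and skin steady state (6.76 CPM) to joint migrated (2.50 CPM) and skin migrated (2.08 CPM), which overlapped again. Tlr5 kept the nonmigrated groups on top but had both migrated groups above joint steady state, and skin steady state last, with no overlap after the first 2 groups. Tlr9 showed no order beyond its spread, with means from 48.2 to 74.4 CPM and each group overlapping the next. Tlr1 fell into steady state (156 to 159 CPM) and the 4 inflamed groups (66.2 to 74.7 CPM), with overlap between neighbours within each set.

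The genes whose log2 CPM followed each receptor most closely over the 18 libraries were taken from 14381 protein-coding genes, as a description over libraries that share groups and depth. For Tlr13 they were Ptafr, the receptor for platelet-activating factor (Pearson r = 0.994), Gpr35 (0.99) and Fcer1g (0.988), and for Tlr5 they were Aoah, the enzyme that inactivates lipopolysaccharide (0.996), Adam9 (0.994) and Ctsb (0.994). Tlr2 was closest to C1rl and Dpep2 (both 0.992), Tlr8 to Hacd4 (0.993), Tlr6 to Tmem189 (0.991), Tlr4 to Dram2 and Milr1 (both 0.989), Tlr7 to Zcchc24 (0.979) and Tlr3 to Slc37a2 (0.966). Tlr1 followed another set, led by Rmnd1 (0.968). Tlr9 had no close match, with Trmt44 the nearest at 0.771.

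The genes that work with the receptors were described from a list of 66 in 8 roles, of which 64 passed the filter. In the joint 21 were called lower and 2 higher after migration, against 12.6% and 8.8% of all genes. In the skin 27 were called lower and 1 higher, against 12.4% and 8.49% of all genes. The median log2 fold changes were -0.63 and -0.57, and those of all genes were 0.02 and 0.01. The shares of all genes apply as well to the counts per role with migration below. Co-receptors and transport proteins carried some of the largest falls: Cd14, which hands lipopolysaccharide to TLR4, went from 1341, 1319 and 1543 CPM to 2.42, 5.68 and 11.9 CPM in the joint (log2 fold change -7.71, SE 0.66, adjusted p = 3.06e-06) and fell as far in the skin (log2 fold change -7.50, SE 0.66). Cd36, a scavenger receptor that assists TLR2, fell at both sites (log2 fold change -6.18 in the joint and -8.01 in the skin). Unc93b1, at 1053, 1106 and 808 CPM in joint nonmigrated and 139, 157 and 163 CPM in joint migrated libraries, fell at both sites (log2 fold change -2.69, SE 0.30, in the joint and -1.94, SE 0.29, in the skin). Ly96, which encodes the MD-2 partner of TLR4, was not called, at -1.29 in the joint (adjusted p = 0.00147) and -0.68 in the skin (adjusted p = 0.0449). The B cell and myeloid receptor Cd180 fell in the joint and in the skin (-2.21 and -3.55), while its partner Ly86 was not called at either site (-1.69 and 0.14).

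Of the 6 adaptors 3 were called lower at each site and 0 higher. Myd88 was at -0.98 in the joint (SE 0.13, adjusted p = 6.19e-05), short of the size limit, and at -1.05 in the skin (SE 0.13, adjusted p = 3.83e-05). Tirap, the bridge to MYD88 for TLR2 and TLR4, fell at both sites (-2.20 and -2.02), and Ticam2, the bridge to TRIF, fell in the joint (-2.86), whereas Ticam1, which encodes TRIF itself, was at 0.45 and 0.00 and not called. Of the kinases and ubiquitin ligases, 0 of 16 were called in the joint and 2 of 16 in the skin, both lower, Irak2 (-3.48) and Tbk1 (-1.48), beside 12.6% and 12.4% of all genes called lower. The transcription factors Irf5 and Irf7 fell at both sites, with -1.75 and -1.74 for Irf5 and -2.00 and -3.19 for Irf7, and the other 4 of that role were not called. Pik3ap1, an adaptor to phosphoinositide 3-kinase, was at -1.80 in the joint and -4.24 in the skin, lower at both sites.

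The inhibitors of the pathway went in different directions. Irak3, which blocks receptor signalling in macrophages, fell at both sites (-2.45 in the joint and -3.79 in the skin). Sigirr, a receptor-like inhibitor, was the list's member that rose at both sites, from 9.22, 12.2 and 13.0 to 62.0, 62.8 and 50.1 CPM in the joint (log2 fold change 2.35, SE 0.23, adjusted p = 7.62e-06) and by 1.76 on the log2 scale in the skin (SE 0.23). Socs1, which damps cytokine and receptor signals, rose in the joint (1.03) and fell in the skin (-1.48). That difference was called in the interaction test, as was that of Pik3ap1, which made 2 of the 64 genes of the list, against 0.119% of all genes. The call of Pik3ap1 was lost in 10 of the 12 fits with 1 library left out, all but those without the second or the third skin nonmigrated library, at differences of 2.38 to 2.52, and that of Socs1 was lost in 0 of them. Over all genes the fits with 1 library left out called 7 to 330, against 20 in the main fit. With replicate number added to the fit, neither call was kept, and 1 of all 16777 genes was called. Among endogenous ligands, S100a8 and S100a9, alarmins of neutrophils that can engage TLR4, were at -8.24 and -8.18 in the joint and at -8.08 and -7.85 in the skin. Of 10 genes that receptor signalling is known to induce, 6 were called lower in the joint and 8 in the skin, with Cxcl2 at -5.99 and -7.24, Il1b at -3.73 and -4.23 and Ccl3 at -3.52 and -6.71. Against steady state, the same 10 were called higher in 5 in joint migrated and in all 10 in skin migrated cells, with 0 lower, beside the shares of all genes given above for these comparisons.

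**Figure D5:**
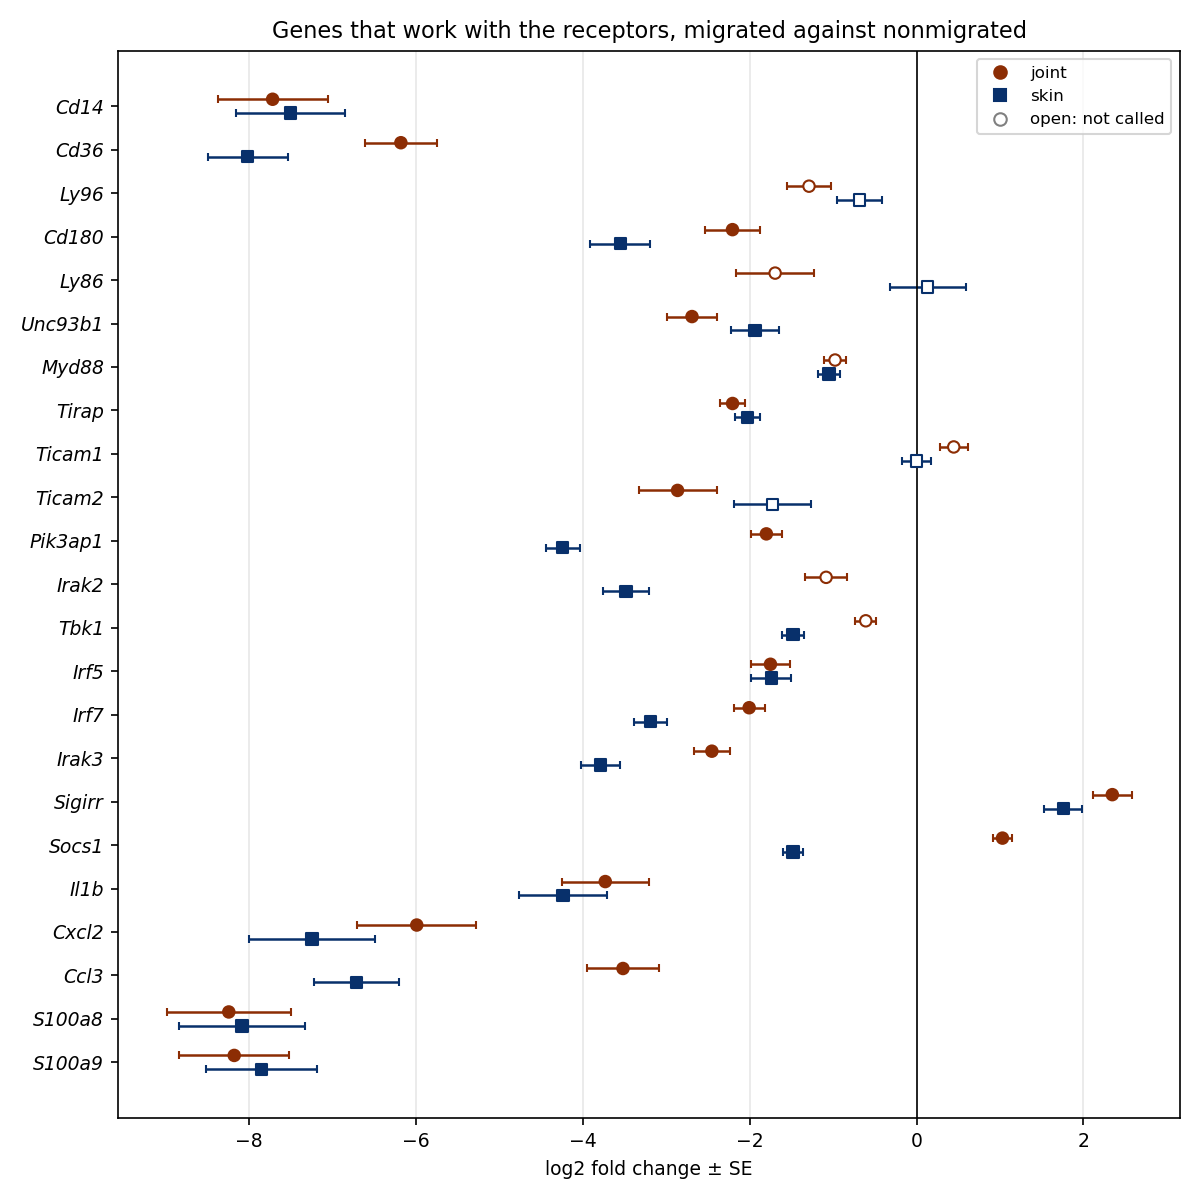
Log2 fold change, migrated against nonmigrated, of 23 genes that work with the receptors, in joint (circles) and skin (squares), with bars of 1 standard error and open symbols for genes that were not called. Cd14, Cd36, S100a8 and S100a9 lie farthest below 0, Sigirr lies above 0 at both sites, and Socs1 lies on opposite sides of 0.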

How the data were processed

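The authors sorted viable CD45+ Kaede red+ cells from pooled mice and deposited whole-number read counts per Ensembl gene, made from 100 bp paired reads trimmed with Trim Galore, aligned to mm10 with TopHat2 and counted against Ensembl release 87 with HTSeq at default settings; tool versions are not given in the sources used here. Of 49585 genes, 18650 were at 0 in all 18 libraries. The 5 summary lines of the counter were removed; reads in no gene came to 0.0925% to 0.562%, ambiguous ones to 1.84% to 2.37% and multiply aligned ones to 9.24% to 12.7%. Replicates differed by more than sampling noise, so none was merged.

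Counts were fitted in edgeR 4.0.16 (R 4.3.3, limma 3.58.1) with TMM scaling, filterByExpr at a minimum count of 10 and the quasi-likelihood F test with Benjamini-Hochberg adjustment, group as the term, once over the 12 inflamed libraries (16777 genes) and once over the 12 LN libraries (17107 genes). CPM used TMM factors over all 18 libraries; exon lengths came from GENCODE M21 (GRCm38), which matched 49326 genes. Each SE was taken as the size of the log2 fold change over the root of its F value. The script was tested on simulated data. Depth, at 19239531 to 43814403 assigned reads, sets a floor of 3 counts, or 0.0616 to 0.18 CPM, for counting error only.

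Alternatives were an adjusted p of 0.05, DESeq2 size factors, no TMM scaling, no filter, only the groups compared, all 18 libraries, a replicate block, each library left out and the DESeq2 1.42.0 Wald test. The members and lists were chosen with earlier results of these data known. Named were the 10 receptors and, per role of the list, the 2 called genes with the largest change at each site. Myd88, Ticam1, Unc93b1, Cd14, Ly96, Cd180 and Ly86 were always named, as was each gene called where 5 or fewer were. Of the 3 genes most similar to each receptor, at least the closest was named.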

Additional observations from a re-analysis of the deposited data

Results flagged for a closer look

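In the test of whether the change with migration differed between joint and skin, at the wider threshold of an adjusted p under 0.05, Tlr6 differed by 1.04 on the log2 scale, falling by 2.49 in the joint and 3.53 in the skin (SE of the difference 0.27, adjusted p = 0.0371). All 3 migrated libraries lay below all 3 nonmigrated ones at both sites. At the main threshold the test called Pik3ap1, with a difference of 2.44 (SE 0.26, adjusted p = 0.00085), and Socs1, with a difference of 2.51 (SE 0.16, adjusted p = 7.99e-05), which was at 18.8 to 22.5 CPM in joint nonmigrated and 95.1 to 119 CPM in skin nonmigrated libraries and at 36.9 to 44.6 CPM in the migrated ones. Neither call was kept with a replicate block, in which 1 of all 16777 genes was called.

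In the test of whether the change from steady state to inflammation differed between the nodes, which was chosen after seeing the data, Tlr13 differed by -4.25, Tlr8 by -4.24 (SE 0.70, adjusted p = 0.00247), Tlr5 by -2.52 (SE 0.46, adjusted p = 0.00415) and Tlr2 by -2.09 (SE 0.35, adjusted p = 0.00273), joint minus skin; of these only Tlr13 passed the main threshold. Neutrophil marker sums were 437 to 848 CPM in joint and 11.6 to 18.1 CPM in skin steady-state libraries, and their part was not tested.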

How the results depend on the processing

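The 8 receptors called lower with migration stayed at 7 or 8 under each alternative at either site. The count for nonmigrated joint against skin went from 1 to 0 with only the groups compared and to 0 with a replicate block, and to 0 to 1 with a library left out; that of the pathway list went from 8 to 16 at an adjusted p under 0.05, 0 with only the groups compared, 5 with the block, 13 by DESeq2 and 1 to 16 with a library left out (16 without the third skin nonmigrated library). Over all genes, the calls for nonmigrated joint against skin went from 511 to 2400 at 0.05. They were 0 with only the groups compared, 304 with the block and 1546 by DESeq2. With a library left out they ran from 120 to 1372, the latter without the third skin nonmigrated library. For joint against skin migrated cells the list gave 2 calls at 0.05 and 3 by DESeq2, against 191 and 181 of all genes. For joint migrated cells against steady state the receptors called went from 3 to 5 at 0.05, with no filter and by DESeq2. All genes called went from 2714 to 4143, 3165 and 3129 in these settings. For the steady-state nodes they went from 1 to 4 at 0.05, with no filter and by DESeq2 and to 3 with only the groups compared, and the list from 6 to 10 at 0.05, with no filter and by DESeq2 and to 2 to 6 with a library left out, 2 without any of the skin libraries. In the site by migration test the receptors called went from 0 to 1 at 0.05, and the list from 2 to 10 at 0.05, 6 with no filter, 7 with all 18 libraries, 0 with the block, 9 by DESeq2 and 1 to 9 with a library left out (9 without the third skin nonmigrated library). In the node test the receptors went from 1 to 4 at 0.05, with no filter and by DESeq2 and to 1 to 2 with a library left out, and the list from 0 to 14 at 0.05, 1 with no TMM scaling, 12 with no filter, 2 with all 18 libraries, 9 by DESeq2 and 0 to 4 with a library left out. Over all genes, calls between the steady-state nodes went from 246 to 665 at 0.05. They were 521 with no filter, 492 by DESeq2 and 330 with only the groups compared. In the site by migration test they went from 20 to 1029 at 0.05. No filter gave 290, all 18 libraries 301, the block 1 and DESeq2 648. Without the third skin nonmigrated library 330 were called. In the node test they went from 152 to 1045 at 0.05, 636 with no filter and 600 by DESeq2. The cause of these changes was not tested.

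Values near 0 changed sign: Tlr1 with migration to 0.14 (joint) and 0.25 (skin) with no TMM scaling, to 0.018 in the skin with the block and -0.16 to 0.23 there with a library left out; Tlr1 between steady-state nodes to -0.031 with no TMM scaling and -0.031 to 0.078 with a library left out; Tlr3 between nonmigrated groups to 0.15 with the block. With a library left out, nonmigrated joint against skin ran from -0.12 to 0.26 for Tlr1 and -0.39 to 0.94 for Tlr3, the site by migration value from -0.53 to 0.80 for Tlr3, -0.62 to 0.12 for Tlr7 and -0.14 to 0.31 for Tlr13, and the node value of Tlr7 from -0.208 to 0.043. Same-numbered migrated and nonmigrated libraries deviated together weakly (correlation 0.021 to 0.254 in the joint, 0.073 to 0.173 in the skin, where each library was closest to its own number). Whether equal numbers mark the same pool of mice is not given in the labels, so the main fits did not pair them. Beside the values above, the block changed no call of a receptor. With 3 pools a group, the SE of a receptor's log2 fold change with migration reached 0.59 (Tlr8 in the joint).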

Other observations

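Of the family members outside the 10, Tlr11 and Tlr12, which sense protozoan profilin, were not called lower with migration at either site. Tlr11 was at 7.21, 12.8 and 11.2 CPM in joint migrated and at 16.1, 26.9 and 23.5 CPM in skin migrated libraries, against 0.534, 0.295 and 0.266 CPM in joint and 0.606, 0.556 and 0.550 CPM in skin steady-state libraries. The groups did not overlap, and Tlr11 was called higher in migrated cells at both sites (log2 fold change 4.85, SE 0.31, adjusted p = 5.9e-08 in the joint and 5.30, SE 0.31, adjusted p = 1.07e-08 in the skin). Against nonmigrated cells it was not called, at 1.04 in the joint (adjusted p = 0.116) and 1.42 in the skin (adjusted p = 0.0386), and the third skin nonmigrated library, at 17.5 CPM, was again far above the other 2, at 3.42 and 3.86 CPM. Tlr12 was at 7.95 to 9.34 CPM in joint migrated and 6.56 to 7.92 CPM in joint steady-state libraries, and was not called in any of the comparisons.

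Il12b, a target of receptor signalling made by dendritic cells and macrophages, was at 9.06, 21.1 and 38.4 CPM in joint migrated and 30.2, 20.5 and 32.3 CPM in skin migrated libraries, and at or near the floor of 3 counts in all 6 steady-state libraries. It was named here after its values were seen. Markers of mature migratory dendritic cells summed to 2299 to 6095 CPM in joint migrated and 4536 to 6471 CPM in skin migrated libraries, against 461 to 770 CPM and 468 to 576 CPM at steady state.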
